A study of Arabidopsis thaliana with 8 samples.

Results

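A set of 165 Arabidopsis thaliana genes was lower in root tips after abscisic acid (ABA), lower in the bin2-1 mutant, and higher when the bzr1-D allele was added to bin2-1. The tables held 33557 genes, of which 15705 reached 5 FPKM (fragments per kilobase of transcript, scaled to the number of mapped fragments) in any of the 6 group columns. A gene was chosen when 3 ratios passed 1.5-fold, each computed with 0.1 FPKM added to both values: Col+ABA below Col-ABA, bin2-1 below Col-ABA, and bzr1-D/bin2-1 above bin2-1. The members also had to reach 5 FPKM in any column. The same 3 ratios are therefore given below as descriptions, with no test. The ratios share groups, since Col-ABA stands in the first and the second and bin2-1 in the second and the third.

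RNA came from the last 1 cm or so of roots of 7-day-old seedlings, all in the Columbia background and all grown on the same medium under long days. The 4 groups, with 2 libraries each, were wild type without ABA (Col-ABA), wild type given 100 µM ABA for 3 h (Col+ABA), the single mutant bin2-1, and the double mutant bzr1-D/bin2-1. The labels do not say whether the mutant roots were given ABA, nor whether a library and its repeat came from separately grown plants, so p-values speak for these libraries only. Each table gives 1 value per group, which leaves no spread between libraries to print, and the depth of the libraries is unknown. Transcripts of BIN2 and BZR1 do not check the genotypes, because both alleles change the protein. BIN2 had 102.3 FPKM in Col-ABA, 66.1 in bin2-1 and 70.0 in bzr1-D/bin2-1. BZR1 had 72.2 FPKM in Col-ABA, 34.4 in bin2-1 and 26.03 in bzr1-D/bin2-1. In bulk tissue, fewer cells of a type and less RNA per cell cannot be told apart.

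ABA is a stress hormone that slows root growth. BIN2 is a GSK3-like kinase that phosphorylates and restrains BZR1, a transcription factor through which brassinosteroids act, and the bin2-1 protein resists the signals that normally switch the kinase off. The bzr1-D protein is a stabilised form of BZR1. BZR1 is known to bind the brassinosteroid response element (BRRE) and the G-box, while ABA-regulated bZIP factors bind the ABA-responsive element (ABRE). Phosphate-starvation factors of the PHR1 family bind the P1BS element.

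The following 6 upstream sequences belong to members named below. Each holds at least 1 marked match, so the 6 are not typical of the members. In the 300-base windows described further on, 11.9% of coding members hold a BRRE or G-box and 11.3% a P1BS. They are the 250 bases before the gene start in the RefSeq annotation of TAIR10.1, read 5′ to 3′ on the strand of the gene. Capitals mark a BRRE (CGTGTG or CGTGCG, or CACACG or CGCACG on the other strand), a G-box (CACGTG) or a P1BS (GNATATNC). SPX3 (chr2:18606160-18606409, plus strand) and PHT1;2 (chr5:17415448-17415697, plus strand) are phosphate-starvation genes. PIP2;4 (chr5:24377207-24377456, minus strand) encodes a water channel and SWEET12 (chr5:7973996-7974245, minus strand) a sugar exporter. The peroxidase genes AT5G19890 (chr5:6725967-6726216, minus strand) and AT3G01190 (chr3:68666-68915, minus strand) each hold a BRRE.
SPX3: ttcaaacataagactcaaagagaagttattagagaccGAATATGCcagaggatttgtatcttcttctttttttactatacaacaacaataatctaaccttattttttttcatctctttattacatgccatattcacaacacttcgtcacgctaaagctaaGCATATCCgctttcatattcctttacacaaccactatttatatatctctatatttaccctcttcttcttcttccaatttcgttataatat
PHT1;2: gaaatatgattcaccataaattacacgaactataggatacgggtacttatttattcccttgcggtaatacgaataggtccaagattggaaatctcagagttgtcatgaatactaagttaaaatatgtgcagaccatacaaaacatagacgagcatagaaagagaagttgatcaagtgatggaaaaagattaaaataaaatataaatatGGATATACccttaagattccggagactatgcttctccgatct
PIP2;4: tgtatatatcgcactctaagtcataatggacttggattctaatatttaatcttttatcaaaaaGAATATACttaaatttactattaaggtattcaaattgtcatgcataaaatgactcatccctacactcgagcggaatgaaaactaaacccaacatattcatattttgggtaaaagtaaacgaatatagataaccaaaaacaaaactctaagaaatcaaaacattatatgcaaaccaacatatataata
AT5G19890: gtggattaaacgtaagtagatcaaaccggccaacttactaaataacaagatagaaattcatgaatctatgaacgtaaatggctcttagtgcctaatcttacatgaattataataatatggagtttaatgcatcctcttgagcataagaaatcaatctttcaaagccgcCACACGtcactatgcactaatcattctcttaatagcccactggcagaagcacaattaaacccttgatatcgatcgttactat
AT3G01190: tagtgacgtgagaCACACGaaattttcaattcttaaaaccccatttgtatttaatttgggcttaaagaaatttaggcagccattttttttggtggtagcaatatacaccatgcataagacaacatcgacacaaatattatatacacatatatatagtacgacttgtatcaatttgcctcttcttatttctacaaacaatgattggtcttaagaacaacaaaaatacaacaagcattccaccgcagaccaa
SWEET12: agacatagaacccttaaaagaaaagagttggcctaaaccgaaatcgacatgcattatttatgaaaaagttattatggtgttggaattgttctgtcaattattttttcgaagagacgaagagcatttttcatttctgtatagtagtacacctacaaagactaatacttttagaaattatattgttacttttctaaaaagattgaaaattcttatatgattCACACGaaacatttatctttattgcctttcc

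Across the 165 members, the median level was 44.0% of Col-ABA with ABA, 27.1% in bin2-1 and 58.2% in the double mutant. The range was 0.193% to 66.5% with ABA, 0.181% to 64.5% in bin2-1 and 2.38% to 265.8% in bzr1-D/bin2-1. The median log2 change was -1.18 with ABA, -1.88 in bin2-1 and 0.95 for bzr1-D/bin2-1 against bin2-1, where the medians of all genes at 5 FPKM or more were 0.02, -0.03 and -0.01. A level was lower in bin2-1 than in Col+ABA for 127 members and lower in Col+ABA for the other 38. Changes in bin2-1 were also wider over all genes at 5 FPKM or more. Their log2 quartiles were -0.48 and 0.42 in bin2-1, against -0.20 and 0.28 with ABA. The median member had 22.3 FPKM in Col-ABA, from 2.26 to 1513.

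**Figure D1:**
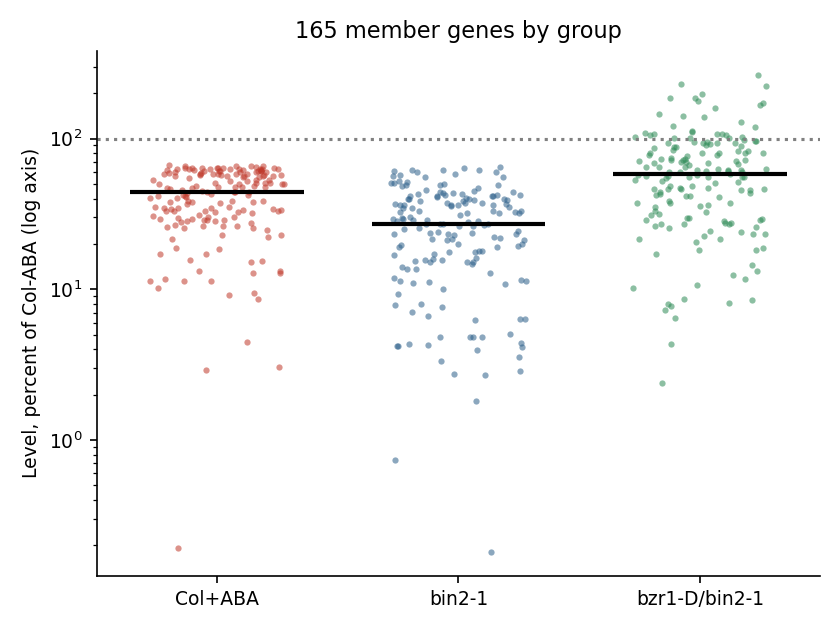
Level of each of the 165 members (points, log axis) as a percent of Col-ABA in Col+ABA, bin2-1 and bzr1-D/bin2-1, with the median as a black bar and Col-ABA as the dotted line at 100%. The medians lie at 44.0%, 27.1% and 58.2%, and all points in Col+ABA and bin2-1 lie below the line because the members were chosen so.

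The rise with bzr1-D had a median of 1.93-fold and was under 2-fold in 90 members. It reached 4-fold in 21 members. In the double mutant 29 members stood at or above Col-ABA, 40 lay below it by less than 1.5-fold, and 96 lay below it by 1.5-fold or more. The median member regained 54.8% of its log2 loss in bin2-1, and 97 members regained at least as much as they still lacked. Some regain is built in, since the rule required a rise, and an error in the bin2-1 value would enter both loss and rise. Depth of loss and final level went together, which is partly built in, since the loss enters the final level. The 77 members at a 4-fold loss or more in bin2-1 had a median of 29.0% of Col-ABA in the double mutant, and the other 88 had 80.2%. The 38 members that were lower in Col+ABA than in bin2-1 had a median rise with bzr1-D of 1.96-fold, and the other 127 of 1.93-fold. Their bin2-1 medians were 43.1% and 23.2% of Col-ABA. The rule puts every rise above 1.5-fold, so nothing is read from likeness of median rises, here or in the gene groups below.

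**Figure D2:**
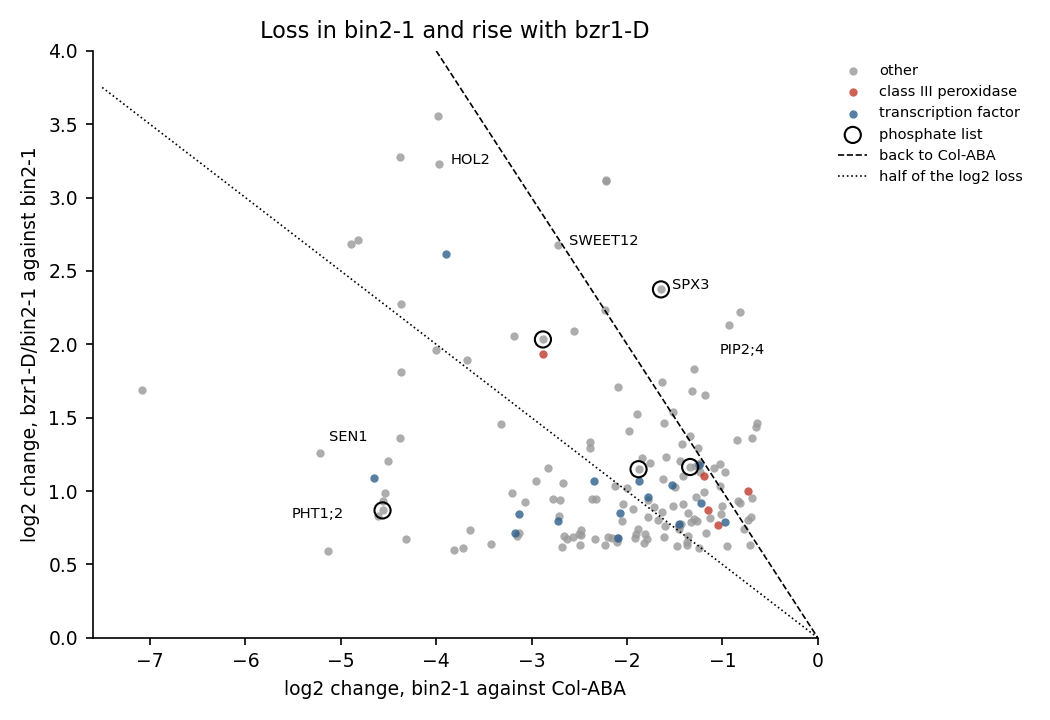
Log2 change in bin2-1 against Col-ABA (x axis) and in bzr1-D/bin2-1 against bin2-1 (y axis) for the 161 members with no group listed at 0. Points on the dashed line are back at their Col-ABA level and points on the dotted line have regained 50% of the log2 loss; SPX3 and PIP2;4 lie above the dashed line, and SEN1 and PHT1;2 far below it.

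In the authors' deposited tables, 147 members passed q under 0.05 in the ABA comparison, 153 in the bin2-1 comparison and 139 in the bzr1-D comparison, and 136 passed in all 3. A gene is counted as tested, here and below, where its deposited p was under the largest possible value, a choice made for these counts. Over all tested genes, 9.51% passed as lower with ABA, 25.6% as lower in bin2-1 and 11.9% as higher with bzr1-D. In the opposite directions the shares were 15.1%, 25.4% and 12.8%. Past 1.5-fold in the direction that chose the members lay 7.59%, 21.1% and 9.31% of the genes at 5 FPKM or more. Nothing is read from the members' own counts, since they were chosen on these ratios. The smallest q in the authors' deposited tables, 0.000385, 0.000188 and 0.000451, were shared by 120, 139 and 100 members and so do not rank them.

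Of the 9 members with no q under 0.05 in any of the authors' deposited tables, 3 were snoRNA genes and 6 were coding genes whose annotated lengths ran from 168 to 780 bases. AT3G14475, a snoRNA gene, had 55.2 FPKM in Col-ABA and 30.5 in the double mutant, and was listed at 0 in Col+ABA and in bin2-1. The coding genes AT2G35733 and AT3G48346 were also listed at 0 in both of those groups, and AT1G51035 was listed at 0 in bin2-1. No fold is given for these 4 members, and AT3G14475, with 0.1 FPKM added, sets the lowest percent given above for Col+ABA and bin2-1. In all, 159 members encode proteins and 6 are RNA genes.

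Genes of the phosphate-starvation response were present with 5 members. SPX1 and SPX3 encode SPX-domain proteins that hold PHR1 back when phosphate is ample. SPX1 had 399.9 FPKM in Col-ABA, 247 in Col+ABA, 158 in bin2-1 and 355 in bzr1-D/bin2-1. SPX3 had 32.5 FPKM in Col-ABA, 15.0 in Col+ABA, 10.3 in bin2-1 and 53.9 in bzr1-D/bin2-1. SPX1 thus stood at 88.7% and SPX3 at 165.8% of Col-ABA in the double mutant, the latter above untreated wild type. MGDC encodes a monogalactosyldiacylglycerol synthase, which makes galactolipid that replaces phospholipid when phosphate is short. It had 47.4 FPKM in Col-ABA, 12.6 in Col+ABA, 6.34 in bin2-1 and 26.3 in the double mutant. PPCK2, a kinase that activates phosphoenolpyruvate carboxylase, had 39.5, 21.0, 10.7 and 23.8 FPKM in the same order of groups. Both ended between their bin2-1 and their Col-ABA level.

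The phosphate transporter gene PHT1;2 had the deepest loss of the 5 in bin2-1. It had 31.6 FPKM in Col-ABA, 10.3 in Col+ABA, 1.24 in bin2-1 and 2.35 in the double mutant, which is 7.72% of Col-ABA. PHT1;1, a close relative on the same chromosome that is no member, had 68.5 FPKM in Col-ABA, 17.2 in Col+ABA, 91.7 in bin2-1 and 53.7 in bzr1-D/bin2-1. The pair are near-identical in sequence, so how reads were divided between them is uncertain. Of the 5 members, SPX3, SPX1, PPCK2 and PHT1;2 hold a P1BS within 250 bases before to 50 bases after the gene start. In SPX3 the matches begin 213 and 90 bases before the start, and in PHT1;2 the match begins 42 bases before it, as printed above. The matches in SPX1 and PPCK2 begin at bases 23 and 13 of the gene.

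A wider list of 24 phosphate-starvation genes, drawn up after the members had been seen, puts these values in context and supports nothing by itself. In the authors' deposited tables, 18 of 23 tested genes of the list were higher with bzr1-D and 1 was lower, with a median log2 change of 1.12. In bin2-1, 15 of 21 were lower and 4 higher (median -0.83). ABA split the list, with 10 of 22 genes lower and 6 higher (median -0.27). The genes that rose with bzr1-D outside the members include PHO1;H1, a relative of the phosphate exporter gene PHO1, at 37.8 FPKM in Col-ABA, 34.6 in Col+ABA, 6.66 in bin2-1 and 31.2 in the double mutant. PHO1;H1 differed from the members in its level with ABA. PAP17, an acid phosphatase gene, had 77.1 FPKM in Col-ABA and 418 in Col+ABA, and so moved with ABA in the direction opposite to the members.

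**Figure D3:**
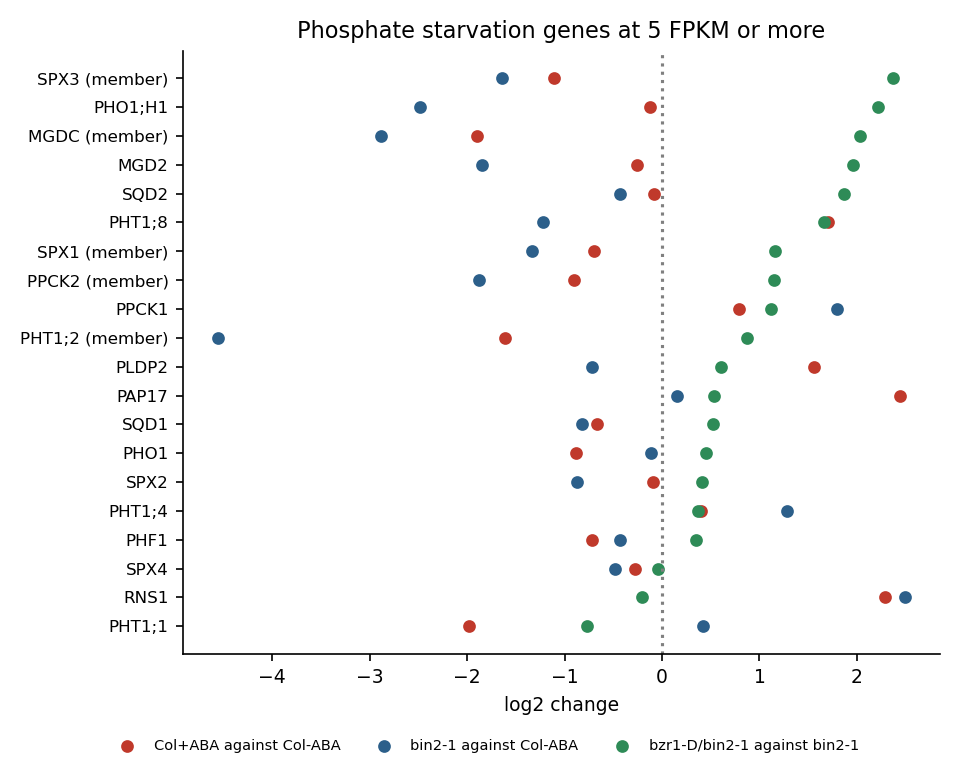
Log2 changes of the 20 phosphate-starvation genes that reached 5 FPKM, in the ABA (red), bin2-1 (blue) and bzr1-D (green) comparisons, ordered by the bzr1-D change. Green points lie right of 0 for all genes shown but SPX4, RNS1 and PHT1;1, while red points lie on both sides, and the 5 members have red and blue points left of 0.

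Class III peroxidases, secreted haem enzymes that crosslink or loosen cell walls had 5 members. AT2G37130 had 697 FPKM in Col-ABA, 256 in Col+ABA, 419 in bin2-1 and 839 in the double mutant. AT4G30170 had 675 FPKM in Col-ABA, 339 in Col+ABA, 303 in bin2-1 and 554 in the double mutant. AT5G64100 had 587 FPKM in Col-ABA, 220.0 in Col+ABA, 285 in bin2-1 and 486 in the double mutant. Of these, AT2G37130 alone ended above Col-ABA, at 120.3%, and AT2G37130 and AT5G64100 were lower with ABA than in bin2-1. AT5G19890 had 359 FPKM in Col-ABA, 106.0 in Col+ABA, 157 in bin2-1 and 336 in the double mutant. AT3G01190 had 145.0 FPKM in Col-ABA, 44.5 in Col+ABA, 19.6 in bin2-1 and 75.3 in the double mutant, the deepest bin2-1 loss of the 5. All 5 passed q under 0.05 in each of the 3 authors' deposited tables, as did 136 of all 165 members. A BRRE begins 82 bases before the start of AT5G19890 and 237 bases before that of AT3G01190, and a further one lies within AT5G64100, at base 39 of the gene.

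The peroxidase family as a whole followed these 5 only in part. With ABA more of its genes were lower than higher, as in the 5. In bin2-1 and with bzr1-D the balance went the other way. Of the 73 peroxidase genes by RefSeq product name, 49 reached 5 FPKM. In the authors' deposited tables, 21 of 56 tested were lower and 11 higher with ABA, 14 of 59 were lower and 28 higher in bin2-1, and 15 of 59 were higher and 20 lower with bzr1-D. Over all tested genes the shares, in that order, were 9.51% and 15.1%, 25.6% and 25.4%, and 11.9% and 12.8%. The family medians were -0.22, 0.38 and -0.06 on the log2 scale. By share, peroxidases were 3.03% of the 165 members, against 0.529% of the 383 genes lowered by ABA and in bin2-1 that bzr1-D left within 1.5-fold, and 0.251% of the 401 genes lowered in bin2-1 and raised by bzr1-D that ABA left within 1.5-fold. Over all genes at 5 FPKM or more the share was 0.314%. These shares are descriptions of small counts.

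Water and solute transport was represented by 10 members classed as transporters or channels. That class made up 6.06% of members and 2.9% of genes at 5 FPKM or more. PIP2;4 and PIP1;5 encode plasma membrane aquaporins, channels that let water into root cells. PIP2;4 had 73.6 FPKM in Col-ABA, 47.1 in Col+ABA, 38.7 in bin2-1 and 169.7 in the double mutant, or 230.5% of Col-ABA. PIP1;5 had 142 FPKM in Col-ABA, 82.3 in Col+ABA, 49.6 in bin2-1 and 145 in the double mutant. NIP5;1, a channel for boric acid uptake, had 119.9 FPKM in Col-ABA, 59.5 in Col+ABA, 41.9 in bin2-1 and 78.2 in the double mutant. PIP2;4 ended above its untreated level, PIP1;5 at about it (101.6%) and NIP5;1 below it (65.3%). SWEET12, a sucrose exporter gene whose upstream sequence holds a BRRE 31 bases before the start, had 17.3 FPKM in Col-ABA, 10.9 in Col+ABA, 2.54 in bin2-1 and 16.8 in the double mutant. UMAMIT17, of a family of amino acid exporters, had 9.21, 1.65, 3.70 and 13.4 FPKM in the same order. The median transporter member stood at 98.6% of Col-ABA in the double mutant, against 58.2% for all members. At or above Col-ABA stood 5 of the 10, against 29 of all 165 members. In bin2-1 the transporter median was also higher, 34.9% against 27.1%. The class was split, since 4 of the 10 stayed 1.5-fold or more below Col-ABA, with PHT1;2 lowest at 7.72%.

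The aquaporin family went partly the same way. In the authors' deposited tables, 17 of 30 tested aquaporin genes were lower in bin2-1 and 6 higher, and 15 of 29 were higher with bzr1-D and 3 lower. ABA lowered 5 of 30 and raised 10. TIP2;2 and TIP2;3, vacuolar membrane aquaporin genes, illustrate the difference from the members. TIP2;3 had 23.6 FPKM in Col-ABA, 60.5 in Col+ABA, 4.52 in bin2-1 and 92.6 in the double mutant, so it was higher with ABA. TIP2;2 had 155, 261, 31.9 and 389.5 FPKM in the same order.

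**Figure D4:**
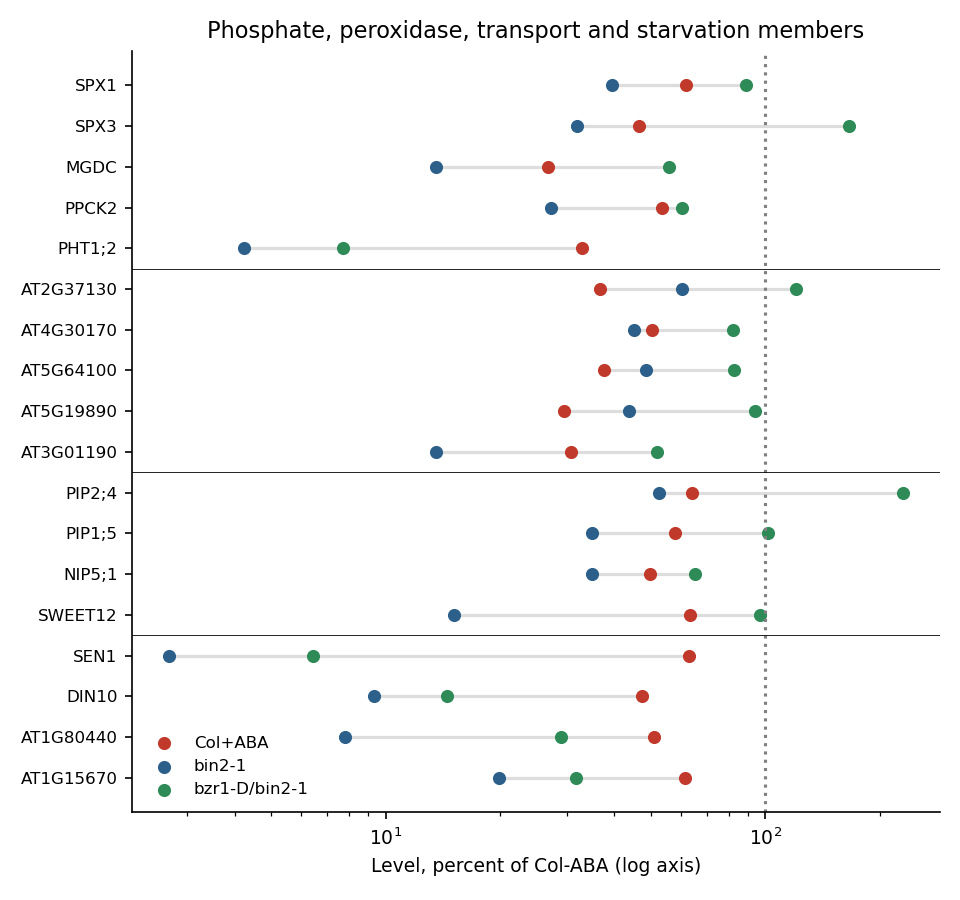
Level of 18 members as a percent of Col-ABA (log axis) in Col+ABA (red), bin2-1 (blue) and bzr1-D/bin2-1 (green), in blocks of phosphate, peroxidase, transport and starvation genes from top to bottom. The green points of SPX3, AT2G37130, PIP2;4 and PIP1;5 lie at or right of the dotted 100% line, while those of the 4 starvation genes lie between 6.43% and 31.6%.

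Genes known to rise in darkness or when sugar runs short had deep losses in bin2-1 and stayed well below Col-ABA in the double mutant. SEN1, a marker of dark-induced senescence, had 291.5 FPKM in Col-ABA, 184 in Col+ABA, 7.73 in bin2-1 and 18.6 in the double mutant. DIN10, annotated as a raffinose synthase, had 1181 FPKM in Col-ABA, 560.1 in Col+ABA, 109.8 in bin2-1 and 171 in the double mutant. AT1G80440 and AT1G15670 encode kelch-repeat F-box proteins, known as KMD1 and KMD2, which target type-B response regulators of cytokinin signalling and phenylpropanoid enzymes for breakdown. AT1G80440 had 99.0, 50.2, 7.64 and 28.6 FPKM, and AT1G15670 had 279.7, 172, 55.5 and 88.4 FPKM, in the same order of groups. The 4 stood at a median of 8.56% of Col-ABA in bin2-1 and 21.7% in the double mutant, and their median rise with bzr1-D, 1.99-fold, was close to the 1.93-fold of all members. Of a list of 11 such genes, also drawn up after the members had been seen, 10 were lower and 1 higher in bin2-1, and 7 higher and 1 lower with bzr1-D, in the authors' deposited tables, while ABA lowered 4 and raised 4.

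Hormone genes among the members cover several pathways. BAS1, a cytochrome P450 that inactivates brassinosteroids, had 17.5 FPKM in Col-ABA, 10.2 in Col+ABA, 5.24 in bin2-1 and 9.81 in the double mutant. ACO1, which makes ethylene from its precursor, had 510.3 FPKM in Col-ABA, 87.8 in Col+ABA, 36.2 in bin2-1 and 54.8 in the double mutant. ACO1 lay close to the threshold for bzr1-D, at 1.51-fold, and ended at 10.8% of Col-ABA. YUC3, an auxin biosynthesis gene, had 25.4, 16.9, 6.09 and 11.6 FPKM in the same order. RALF1, a peptide that signals through the receptor FERONIA to restrain root cell growth, had 198 FPKM in Col-ABA, 124 in Col+ABA, 98.2 in bin2-1 and 183 in the double mutant. It was back at 92.6% of Col-ABA. ACL5, a thermospermine synthase that acts in xylem, had 66.6 FPKM in Col-ABA and 25.5 in the double mutant, after 33.8 in Col+ABA and 13.2 in bin2-1.

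ACO1 was the only member among 15 genes of a low-oxygen and fermentation list. Of these 15, in the authors' deposited tables, 14 were lower with ABA and 15 lower in bin2-1, at medians of -1.28 and -3.94 on the log2 scale. With bzr1-D 10 were lower still and 2 higher (median -0.65). Members were 1.05% of the genes at 5 FPKM or more, so lists of this size would seldom hold one. No member came from the lists of brassinosteroid synthesis genes (0 of 6) or brassinosteroid-induced growth genes (0 of 8). The suberin genes (0 of 8) and ABA receptors (0 of 14) held none either. Only genes at 5 FPKM or more could be members, which were 5, 3, 8 and 9 genes of these lists, in that order. In those tables the ABA receptor genes were lower with ABA in 7 of 10 with 2 higher, lower in bin2-1 in 8 of 10 with 1 higher, and higher with bzr1-D in 3 of 10 with 1 lower. Suberin genes were higher with ABA in 8 of 8, higher in bin2-1 in 6 of 8 with 2 lower, and higher with bzr1-D in 7 of 8. Families that likewise held no member, from which nothing is read, were the nitrate transporters (0 of 16), Aux/IAA (0 of 26), GH3 (0 of 9) and LSU (0 of 4). In that order, 10, 21, 6 and 4 of their genes reached 5 FPKM.

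Transcription factors were 9.09% of members and 6.31% of genes at 5 FPKM or more. The 15 transcription factors among the members had a median of 42.9% of Col-ABA in the double mutant, against 58.2% for all members. Their median in bin2-1 was also lower, 23.7% against 27.1%. Col-ABA was reached by 0 of the 15, against 29 of all 165 members, a small count to compare. Their median rise with bzr1-D was 1.89-fold, against 1.93-fold for all members. AT5G61590, an ERF-type factor known to repress wax synthesis genes in shoots, had 424 FPKM in Col-ABA, 96.6 in Col+ABA, 16.8 in bin2-1 and 35.8 in the double mutant. AT3G60490, also annotated as an Integrase-type (ERF) factor, had 127, 31.3, 14.4 and 25.9 FPKM. MYB59 had 87.4 FPKM in Col-ABA, 24.2 in Col+ABA, 44.4 in bin2-1 and 76.7 in the double mutant, lower with ABA than in bin2-1. The bHLH gene AT2G31730 had 17.2 FPKM in Col-ABA, 1.86 in Col+ABA, 1.06 in bin2-1 and 7.00 in the double mutant. WOX14, which acts in vascular cells, had 42.4, 6.57, 4.62 and 7.64 FPKM, and WRKY9 had 30.8, 16.1, 7.24 and 13.2 FPKM. WOX14 ended at 18.2% of Col-ABA and WRKY9 at 42.9%. GL2, the homeodomain factor that keeps epidermal cells from forming hairs, had 18.2 FPKM in Col-ABA, 11.4 in Col+ABA, 7.73 in bin2-1 and 14.7 in the double mutant. MYB86 had 9.90, 3.66, 4.12 and 9.43 FPKM in the same order and came closest of the factors named to Col-ABA, at 95.4%. The homeobox gene HB-3 ended at 62.3% of Col-ABA, from 23.1 FPKM there, and MYR1 at 37.5%, from 11.7 FPKM.

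FRU, the FER-like regulator that switches on iron uptake, had 8.26 FPKM in Col-ABA, 3.31 in Col+ABA, 2.18 in bin2-1 and 4.67 in the double mutant. It was the member from a list of 12 iron uptake genes, of which 3 of 10 were lower and 2 higher with ABA, 4 of 11 lower and 4 higher in bin2-1, and 4 of 11 higher and 3 lower with bzr1-D in the authors' deposited tables. FRO4, a ferric reductase gene outside that list, had 13.2 FPKM in Col-ABA and 3.71 in the double mutant. AT1G61590, the kinase gene SGN1 needed for an unbroken Casparian strip, had 74.2 FPKM in Col-ABA, 31.0 in Col+ABA, 28.9 in bin2-1 and 46.8 in the double mutant. The Casparian strip list had 7 of 10 genes lower in bin2-1, and 6 of 10 higher and 1 lower with bzr1-D, in those tables, and with ABA 2 were lower and 2 higher.

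Cell wall genes gave 9 members, 5.5% of the members against 2.1% of genes at 5 FPKM or more. BGAL4, a beta-galactosidase, had 147.9 FPKM in Col-ABA, 83.9 in Col+ABA, 61.8 in bin2-1 and 151 in the double mutant. CALS1, a callose synthase, had 18.9, 6.24, 8.01 and 17.7 FPKM in the same order, and XTH5, which remodels xyloglucan, had 49.2, 27.7, 19.9 and 34.9 FPKM. BGAL4 and CALS1 ended within 10% of Col-ABA. AT2G45220, a pectin methylesterase gene, had 246 FPKM in Col-ABA and 71.2 in the double mutant, after 79.8 in Col+ABA and 43.8 in bin2-1. ATPMEPCRD, of the same pectin methylesterase family, had 7.23 FPKM in Col-ABA, 4.68 in Col+ABA, 1.47 in bin2-1 and 13.5 in the double mutant. Among the 6 cytochrome P450 members, CYP71B7 had 97.3 FPKM in Col-ABA, 14.6 in Col+ABA, 25.6 in bin2-1 and 41.1 in the double mutant, and CYP702A2 had 6.73, 1.63, 0.327 and 1.56 FPKM. CYP705A18 ended highest of the P450 members, at 109.0% of Col-ABA, after 10.01, 6.25, 6.14 and 10.9 FPKM in the 4 groups. CYP89A9 ended at 61.0% and CYP705A4 at 79.6%. P450 genes were 3.64% of members and 0.699% of genes at 5 FPKM or more. The shares of both classes are descriptions of small counts.

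The families around these members differed from each other in the authors' deposited tables. In bin2-1 the XTH genes were mostly lower and the expansin genes mostly higher. Over all tested genes, 9.51% were lower and 15.1% higher with ABA, and 25.6% lower and 25.4% higher in bin2-1. With bzr1-D 11.9% were higher and 12.8% lower. Of the tested P450 genes, 36 of 160 were lower and 51 higher with ABA, 38 of 168 lower and 75 higher in bin2-1, and 34 of 170 higher and 55 lower with bzr1-D. Of the XTH genes, 6 of 28 were lower and 7 higher with ABA, 16 of 27 lower and 6 higher in bin2-1, and 12 of 27 higher and 7 lower with bzr1-D. Of the expansin genes, 5 of 22 were lower and 5 higher with ABA, 4 of 24 lower and 15 higher in bin2-1, and 4 of 24 higher and 4 lower with bzr1-D. Of the SAUR genes, auxin-responsive in name, 7 of 39 were lower and 5 higher with ABA, 9 of 40 lower and 14 higher in bin2-1, and 6 of 42 higher and 7 lower with bzr1-D. The SAUR member AT4G34810 had 12.8 FPKM in Col-ABA, 1.61 in Col+ABA, 4.70 in bin2-1 and 11.9 in the double mutant. Its q for ABA in the authors' deposited table was 0.0558.

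HOL2, a methyltransferase gene, had the largest change among members with q under 0.05 in all 3 authors' deposited tables when ranked by the smallest of its 3 changes. It had 92.3 FPKM in Col-ABA, 7.87 in Col+ABA, 5.79 in bin2-1 and 55.1 in the double mutant. The most abundant member in Col-ABA, AT1G19530, had 1513 FPKM there, 985.5 in Col+ABA, 62.1 in bin2-1 and 110.3 in the double mutant. AT4G33720, of the pathogenesis-related 1 superfamily, had 1002 FPKM in Col-ABA, 662 in Col+ABA, 426 in bin2-1 and 972 in the double mutant. The first ended at 7.30% of Col-ABA and the second at 96.9%. Relative to Col-ABA, the lowest level in the double mutant, 2.38%, was that of AT4G30380, annotated as a Barwin-related endoglucanase, with 32.5 FPKM in Col-ABA, 3.61 in Col+ABA, 0.141 in bin2-1 and 0.668 in the double mutant. The highest, at 265.8% of Col-ABA, was that of the snoRNA gene AT4G39364, with 75.1, 30.3, 42.7 and 199.4 FPKM. For these 2 genes the bin2-1 and bzr1-D q in the authors' deposited tables were above 0.05, from 0.337 to 0.701. AT1G07175, annotated as an alternative NAD(P)H dehydrogenase, had 40.1 FPKM in Col-ABA, 18.7 in Col+ABA, 2.45 in bin2-1 and 29.8 in the double mutant. AT1G53610 and the defensin-like gene AT5G33355, with no q under 0.05 in the authors' deposited tables, had 18.8 and 11.9 FPKM in Col-ABA and 0.536 and 0.326 FPKM in bin2-1.

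Cell type markers moved as well. The cortex marker AT1G09750, an aspartyl protease gene, is itself a member, with 82.5 FPKM in Col-ABA, 51.2 in Col+ABA, 3.86 in bin2-1 and 10.1 in the double mutant. The other cortex marker, AT1G62510, had 77.6, 55.5, 13.2 and 20.2 FPKM. Of the tissue sums, endodermis markers had 330.2 FPKM in Col-ABA, 376 in Col+ABA, 224 in bin2-1 and 339 in the double mutant, and the 8 epidermis and root hair markers summed to 197, 156, 314 and 295 FPKM. The epidermal markers did not move together in bin2-1: EXPA7 went from 18.4 FPKM in Col-ABA to 89.6, while RHD2 went from 22.8 to 14.1, MYB66 from 22.1 to 18.1, and GL2 was lower as given above. Xylem markers summed to 81.1, 100.0, 57.2 and 89.5 FPKM, phloem markers to 53.5, 86.7, 45.4 and 56.6, and root cap markers to 21.0, 14.3, 26.3 and 38.9 in the same order. The pair of root cap markers diverged in bin2-1, where SMB had 9.58 FPKM against 15.7 in Col-ABA and NAC015 had 16.7 against 5.36. The 1 quiescent centre marker, WOX5, had 1.94 FPKM in Col-ABA, 4.76 in Col+ABA, 10.7 in bin2-1 and 3.90 in the double mutant. Meristem markers summed to between 5.15 and 14.2 FPKM, and green tissue markers to between 4.86 and 11.2. No marker was at 0 in any group. The part of cell type shares in the members' values was not tested.

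In promoter windows of 300 bases (250 before to 50 after the gene start), a BRRE or G-box on either strand lay in 19 of 159 coding members, or 11.9% (95% Wilson interval 7.79% to 17.9%). The share was 15.9% of 15343 genes at 5 FPKM or more and 14.0% of all 26686 windows. BRRE alone lay in 10.1% of member windows and 8.92% of expressed genes, and the G-box in 3.14% (1.35% to 7.15%) and 9.35%. The ABRE, taken as ACGTGT or ACGTGG, lay in 15.7% of member windows and 21.3% of expressed genes, and it overlaps the G-box and BRRE in letters. In AT5G19890 the BRRE and an ABRE overlap. P1BS lay in 11.3% of member windows (7.28% to 17.2%) and 6.39% of expressed genes. It lay in 8.79% of genes lowered by ABA and in bin2-1 but not moved by bzr1-D. In genes lowered in bin2-1 and raised by bzr1-D but not moved by ABA it lay in 8.76%. The G-box shares of these sets, in that order, were 5.5% and 7.22%. P1BS was not planned beforehand as a motif, and 4 of the 18 member windows with it belong to phosphate genes. In the added phosphate list it lay in 11 of 24 windows. The TATAAA letters lay in 65.4% of member windows and 52.5% of expressed genes, and the E-box CANNTG in 64.2% and 62.5%. Intervals cover counting error only, and a match is no evidence of binding.

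**Figure D5:**
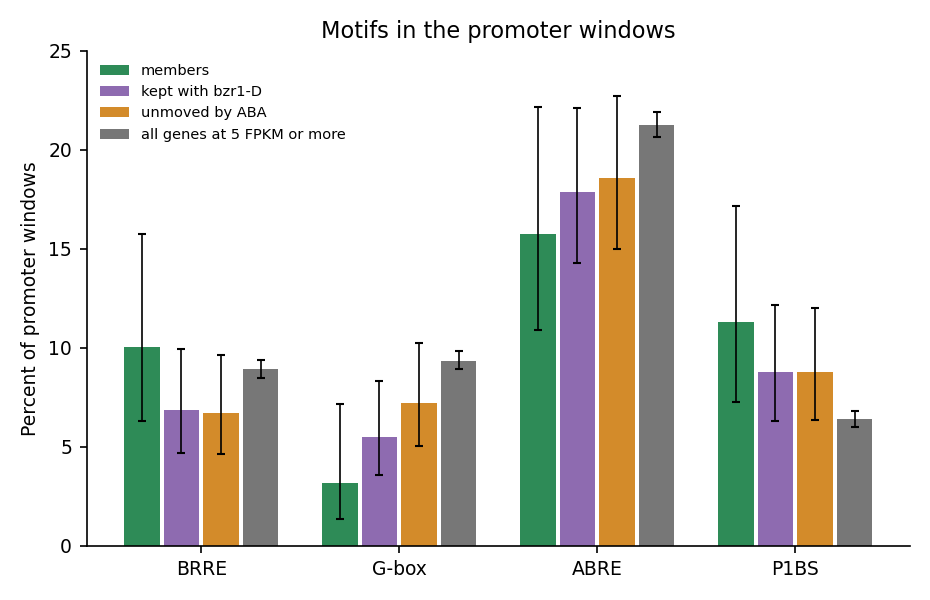
Percent of 300-base promoter windows holding each motif in the members (green), in genes lowered by ABA and in bin2-1 but not moved by bzr1-D (purple), in genes lowered in bin2-1 and raised by bzr1-D but not moved by ABA (orange) and in all genes at 5 FPKM or more (grey), with 95% Wilson intervals. The G-box is in 3.14% of member windows and 9.35% of all, and P1BS in 11.3% and 6.39%. In the purple and orange sets the G-box is in 5.5% and 7.22%, and P1BS in 8.79% and 8.76%.

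Few members stand side by side in the genome. The pairs within 3 genes of each other were AT1G60000 with AT1G60010, AT3G47210 with PLC9, AT4G36850 with CP1, and the germin-like cupin genes AT5G39110 with AT5G39120. The last pair are close copies that may share reads: AT5G39120 had 20.9 FPKM in Col-ABA, 11.4 in Col+ABA, 0.908 in bin2-1 and 9.62 in the double mutant, and AT5G39110 had 15.1, 4.26, 2.63 and 4.44 FPKM. Beside AT1G60010 the pseudogene AT1G60020 had 0.0287 FPKM in Col-ABA, 0.0410 in Col+ABA, 37.6 in bin2-1 and 0.112 in the double mutant. In bin2-1 and in the double mutant it moved opposite to both members, which had 80.3 FPKM (AT1G60010) and 5.75 FPKM (AT1G60000) in Col-ABA and 39.4 and 2.45 FPKM in bin2-1. Chromosome 1 held 31.5% of members and 25.8% of expressed genes, and the other chromosomes held between 13.9% and 21.8% of members.

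Some members sit at the thresholds. YUC3 was 1.503-fold lower with ABA and SCPL45 1.514-fold, while CSLA11 and AT1G09910, both 1.499-fold lower, fell just outside. In bin2-1, BGLU34 was 1.55-fold lower inside and UMAMIT4 1.46-fold lower outside. For bzr1-D, AT2G44798 and ACO1 were 1.51-fold higher inside, and AT5G03380 was 1.498-fold and ARL 1.49-fold higher outside. At the floor, AT2G35733 reached 5.18 FPKM and AT4G14380, outside, 4.87 FPKM.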

How the data were processed

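RNA was sequenced from TruSeq libraries on a HiSeq2000, with 2 libraries in each of 4 groups, grouped by their titles per the labels. Reads were processed with TopHat and Cufflinks on TAIR10, per the submitters' processing notes; their versions: not given in the sources used here. The authors deposited 1 value per gene and group, taken here as FPKM since Cufflinks reports that unit. Every p-value and q-value was deposited by the authors, and the test behind them is unstated. Levels are printed on the scale of the bin2-1 table, with Col+ABA multiplied by 1.066 and bzr1-D/bin2-1 by 0.959, the median ratios of the group shared by 2 tables. Ratios were taken within a table; bzr1-D/bin2-1 against Col-ABA is the sum of 2 log2 ratios. Genome and annotation were RefSeq TAIR10.1, the same nuclear assembly as TAIR10. The members and gene lists were chosen with earlier results of these data known. Named genes are the 8 members highest in Col-ABA, the 8 with the largest bzr1-D rise, the 8 with the largest smallest change, members of the lists and families, the 10 most abundant transcription factors and the 4 highest and 4 lowest in the double mutant; RALF1, YUC3, ACL5, SWEET12, UMAMIT17, FRO4, BGAL4, CALS1, AT2G45220, TIP2;2, TIP2;3, PHT1;1, PHO1;H1, PAP17 and the neighbours and genes at thresholds were named after their values were seen. The rule was tested on simulated data. Python 3.11.15, pandas 2.3.3, numpy 2.4.6, scipy 1.17.1 and matplotlib 3.10.9 were used.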

Additional observations from a re-analysis of the deposited data

How the results depend on the processing

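The set grew from 165 to 257 members with a floor of 1 FPKM and to 359 with no floor, and it shrank to 42 at 2-fold, where the median log2 change with bzr1-D was 1.602. Under the other 5 choices the number lay between 132 and 172. The median log2 change of bzr1-D/bin2-1 against Col-ABA, whose sign the rule does not set, lay between -0.84 and -0.49 under the 8 choices. With G-box alone, 3.14% of member promoters held a motif, and in 1000 bases upstream, a window chosen after seeing the data, 26.4% of members and 32.9% of all genes at 5 FPKM or more held a BRRE or G-box. A pseudocount of 1 FPKM moved 27 of 159 named changes by 1.5-fold or more. With a pseudocount of 0, 2 moved and 146 did not, and changes with a group listed at 0 could not be scored. At q under 0.01, 122 members passed in all 3 of the authors' deposited tables, against 136 at q under 0.05. The matching share of all genes was not computed, and nothing is read from these counts, since the members were chosen on the same ratios. P1BS lay in 30.8% of members and 20.3% of expressed genes in the 1000 bases upstream. It lay there in 20.6% of genes lowered by ABA and in bin2-1 but not moved by bzr1-D. In genes lowered in bin2-1 and raised by bzr1-D but not moved by ABA the share was 24.7%. No paired analysis was possible because each table gives 1 value per group and no values per library, so leaving out each library was not run either, and the depth of the libraries is unknown.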
